A study of Mus musculus with 65 samples.

Results

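Genes of DNA replication and repair were followed in the spinal cord of 65 mice. They were chosen by symbol, as every array feature whose annotation gave a single symbol of the RAD, XRCC, ERCC, MSH, MLH, FANC, PARP, RFC, RPA, LIG, POL, PRIM, MCM, ORC or PCNA type, with Wrn, Terf1 and Tnks left aside. The rule used symbols and no measured value, although it was written with earlier results of these data known. The rule found 39 features of 35 genes, out of 4209 genes that had a feature with a single symbol. RNA of each spinal cord had been hybridized to 1 nylon cDNA filter, and the deposited value is a Z score, the distance of a feature from the array's average, counted in SDs of that array. The C57BL/6 mice were wild type with no transgene named in the labels, and the labels give each array an animal code, age and sex of its own. Ad libitum (AL) feeding was represented by 10 juveniles, aged 17 to 44 days, and by 10 animals at 6 months (169 to 194 days), 10 at 16 months (476 to 499 days) and 10 at 24 months (704 to 743 days). Mice on caloric restriction (CR), a ration lowered stepwise in young adulthood, comprised 8 of 6 months (174 to 194 days), 10 of 16 months (472 to 499 days) and 7 of 24 months (673 to 743 days). Both sexes were present in every group, with 3 to 5 mice of each.

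Before a cell copies its DNA, the origin recognition complex (ORC) loads the ring-shaped MCM helicase onto replication origins, and polymerases, the clamp loader RFC, the single-strand binding protein RPA and DNA ligase then build the new strands. Mismatch, nucleotide excision, base excision, recombination, crosslink and end-joining repair each remove a different kind of damage, and several replication proteins serve them as well. Most neurons of the adult spinal cord no longer divide, so licensing genes are associated mainly with dividing glia and progenitors, whereas repair genes act in dividing and non-dividing cells alike.

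Arrays differed in ways that the groups did not explain. Without arrays 31 to 33, they fell into 2 runs along the first principal component, 41 in the first and 21 in the second. The labels do not name these runs. Arrays 31 to 33, all of mice of 6 months (1 AL and 2 CR), had been picked out by their values. They were held out before that component was computed and have no place on it. By their array numbers they were counted with the second run, which then had 24 arrays. Replicate numbers are names given here in the order of the samples. Counted so, the second run held 2 of 10 AL mice of 6 months (1 without array 33) and 6 of 10 of 24 months. It held 2 of 8 CR mice of 6 months, and 0 without arrays 31 to 33. A second value, called run-adjusted here, is therefore given beside the results. It comes from a fit that has a term for the run and leaves arrays 31 to 33 out. In that fit the CR mice of 6 months are all of the first run. For 1 array (24 months AL, male replicate 2) the title and the description label disagreed, and the title was followed. Of the markers that define the tissue, 3 of 14 neuronal genes (Nefl, Uchl1 and Slc17a6), 3 of 10 astrocyte genes, 1 of 11 oligodendrocyte genes (Gsn) and 0 of 6 progenitor genes had a feature with a single symbol. Nefl, the light neurofilament chain, had a mean Z of 0.983, Uchl1 of 0.533 and Slc17a6 of -0.292, and the astrocyte genes Cst3, Slc1a3 and Clu had 0.572, -0.584 and -1.36. In tissue RNA, fewer cells of a type and less RNA per cell cannot be told apart.

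By role the 35 genes comprised 10 of origin licensing and helicase, 8 of synthesis at the fork, 2 of mismatch repair, 3 of nucleotide excision repair, 2 of base excision and single-strand break repair, 7 of recombination and crosslink repair, 1 of end joining (Xrcc6), 1 of translesion synthesis (Rad18) and 1 cohesin subunit (Rad21, which holds sister chromatids together). Checkpoint clamp genes, Pcna and the other PARP genes had 0 features with a single symbol. Rpa1 and Prim1 occurred only on features annotated with several symbols (3 features) and are not described. Mean Z was above 0 for 18 genes and below 0 for 17, but clones of different length and sequence cannot be ranked against each other by it. The SD between mice of the same group was 0.0733 for the steadiest gene, Mcm7, and 0.639 for Mcm8, with a median of 0.142 against 0.146 over all 7782 rows tested (genes, and features without a single symbol).

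**Figure D1:**
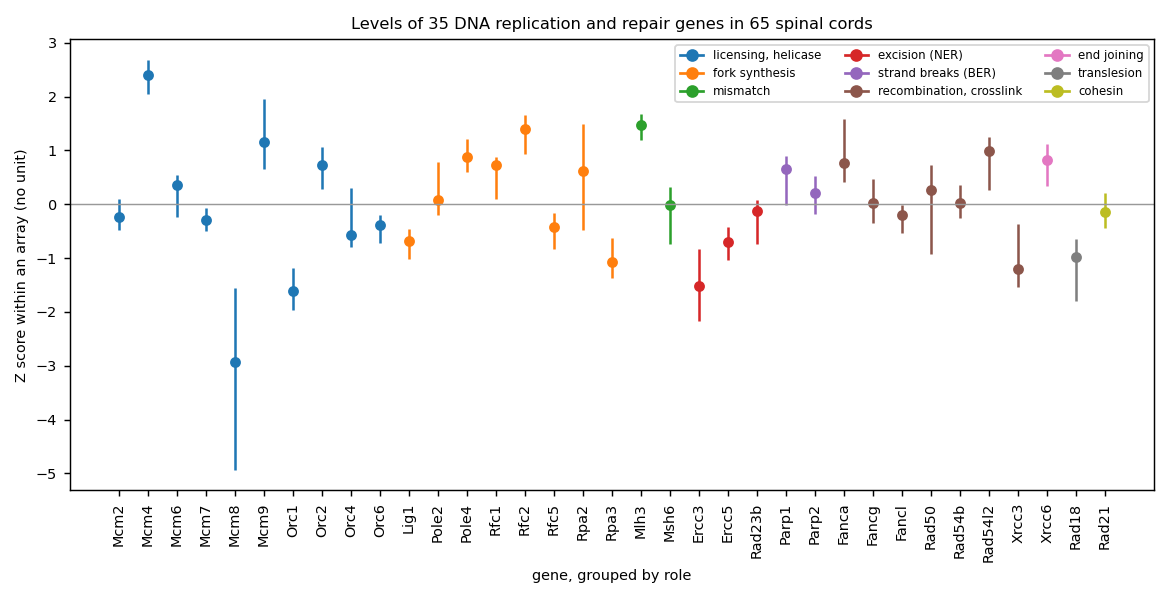
Z score within an array (y axis) of each of the 35 genes (x axis, grouped and coloured by role), with points for the mean and lines for the lowest and highest of 65 mice. The line of Mcm8 is the longest, from -4.93 to -1.56, and that of Mcm7, from -0.49 to -0.08, is short.

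No replication or repair gene passed the test between stages, diets or sexes when all 65 arrays were weighted equally. By limma's F test over the 7 stage and diet groups, 0 of 35 genes had an adjusted p under 0.05, against 0.206% of all rows. At an unadjusted p under 0.05 there were 4 genes, 11.4% of the 35, beside 8.94% of all rows. The smallest adjusted p of any member in this test was 0.213, that of Rad18, and 0.0561 when run-adjusted. The values of the 8 genes with the smallest p in this test are described below with those of their role.

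**Figure D2:**
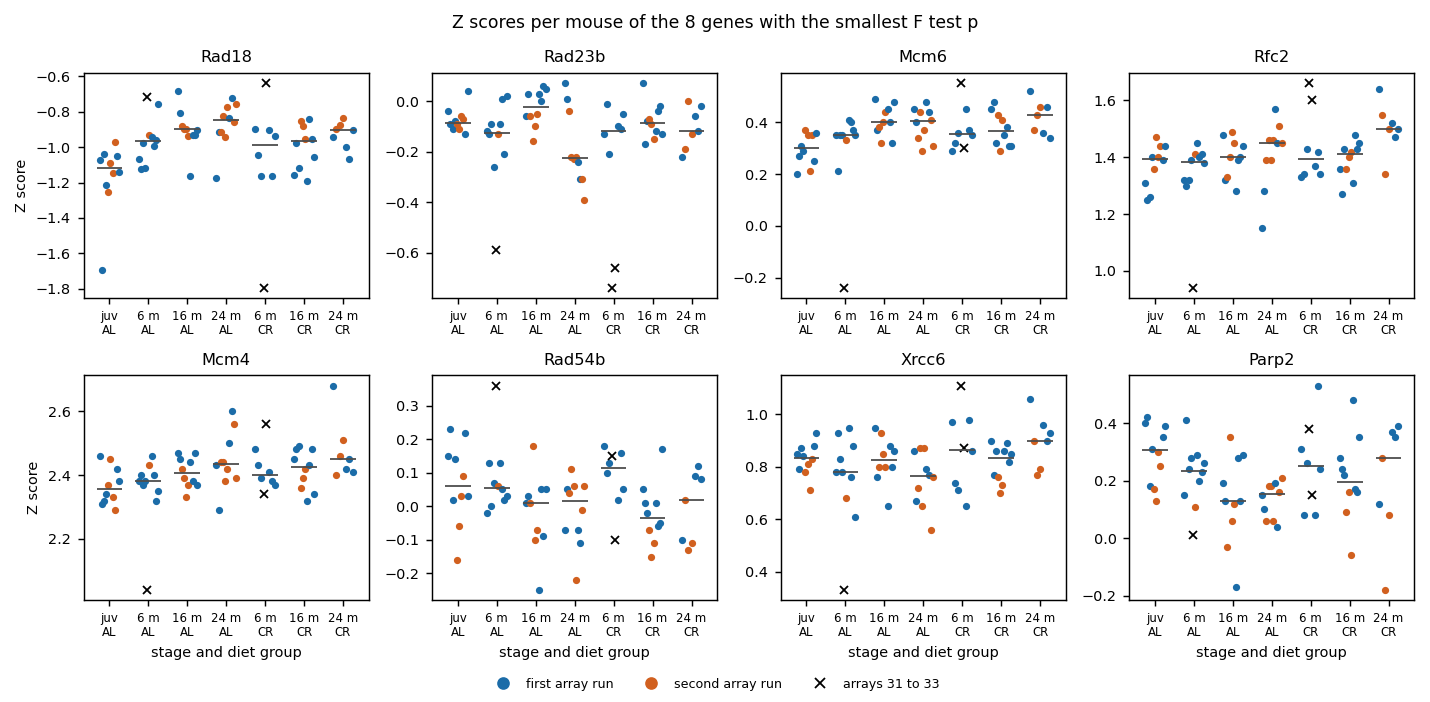
Z score (y axis) of the 8 genes with the smallest F test p, by stage and diet group (x axis; juv, juvenile; m, months), each point being 1 mouse, coloured by array run, with crosses for arrays 31 to 33 and lines for the group median. The groups overlap in every panel, and array 33, an AL male of 6 months, lies at -0.24 for Mcm6 and 0.94 for Rfc2.

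Among the licensing genes, Mcm6 and Mcm4 encode subunits of the replicative MCM helicase. In AL mice Mcm6 had a lowest, median and highest Z of 0.20, 0.30 and 0.37 in juveniles, -0.24, 0.35 and 0.41 at 6 months, 0.32, 0.40 and 0.49 at 16 months, and 0.29, 0.405 and 0.48 at 24 months. Under CR these were 0.29, 0.355 and 0.55 at 6 months, 0.29, 0.365 and 0.48 at 16 months, and 0.34, 0.43 and 0.52 at 24 months. All groups overlapped, and the lowest value belonged to array 33. The difference from 6 to 24 months in AL mice was 0.105 (SE 0.0462, adjusted p = 0.342 in limma), and 0.0526 when run-adjusted. Mcm4 ran from 2.29 through 2.355 to 2.46 in juveniles, from 2.04 through 2.38 to 2.46 at 6 months, from 2.33 through 2.405 to 2.47 at 16 months and from 2.29 through 2.435 to 2.60 at 24 months in AL mice. Under CR Mcm4 ran from 2.34 through 2.40 to 2.56, from 2.32 through 2.425 to 2.49 and from 2.40 through 2.45 to 2.68 in the same order of ages. Its spread was therefore narrow in every group, and its difference from 6 to 24 months in AL mice was 0.092 (SE 0.0384, adjusted p = 0.342). Orc1 and Orc6, subunits of the complex that marks origins, had positive differences from the juveniles to 6 months of 0.141 and 0.101, with run-adjusted values of 0.132 and 0.108.

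The other genes of the licensing and helicase role, in which Mcm8 and Mcm9 are counted as helicases, did not pass the test either. Orc1 ran from -1.97 through -1.68 to -1.42 in juveniles, from -1.70 through -1.54 to -1.40 at 6 months, from -1.79 through -1.65 to -1.41 at 16 months and from -1.88 through -1.62 to -1.51 at 24 months in AL mice. From 6 to 24 months its difference was -0.104 (adjusted p = 0.435), the lowest of the 10 genes, and that of Mcm2 was the highest (0.125, adjusted p = 0.424). Mcm2, another helicase subunit, lay 0.239 higher in the second array run than in the first, and its run-adjusted difference was 0.00977. Mcm7, also of the helicase, had a difference of 0.027, Mcm9, the partner of Mcm8, one of -0.058, and Orc2, Orc4 and Orc6 had -0.001, 0.009 and -0.004. Mcm8, a helicase paralogue of recombination repair, was the member with the widest spread, and its difference of 0.018 had a 95% interval from -0.539 to 0.575. Mcm8 and Mcm9 also had wide differences in other comparisons. That of Mcm8 between CR and AL mice of 24 months was 0.331 (SE 0.307, adjusted p = 0.775 in limma). That of Mcm9 from 6 to 16 months in AL mice was -0.171 (SE 0.0961, adjusted p = 0.4235).

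Transcripts of helicase subunits were also compared across mice, after the means of the groups and runs were removed and without arrays 31 to 33 (n = 62). Mcm2 and Mcm4 varied together, with r = 0.394 (permutation p = 0.00158, adjusted p = 0.0079 over 10 relations) and rho = 0.385 (permutation p = 0.00198, adjusted p = 0.0099). Without the 2 mice farthest in Mcm2, r was 0.315, and it was 0.316 among the 41 mice of the first run and 0.563 among the 21 of the second. Mcm4 and Mcm7 had r = 0.311 (permutation p = 0.0138, adjusted p = 0.046) and rho = 0.270 (permutation p = 0.0349, adjusted p = 0.0927), but r was 0.192 without the 2 farthest mice and 0.438 and -0.0149 within the runs. The other 4 pairs of Mcm2, Mcm4, Mcm6 and Mcm7 had r from 0.0834 to 0.2675 and did not pass (adjusted permutation p from 0.0879 to 0.740). Pairs of unrelated features were not compared for any of the 10 relations. The part of effects shared by whole arrays beyond the run was not tested.

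Replication genes are classical targets of E2F factors, which switch on S-phase genes, so the promoters of the group were read. The RefSeq table (GRCm38.p6) held a window of the bases before and just after the start for 28 of the 35 genes. The letters TTTGGCGC, TTTCCCGC, TTTCGCGC or TTTGCCGC, known E2F-type sites, were searched on both strands. They were present in a window of 10 of the 28 genes (35.7%), beside 704 of 27025 genes in the whole table (2.61%). The genes were Fancg, Lig1, Mcm6, Mcm7, Mcm8, Msh6, Orc1, Pole2, Pole4 and Xrcc6. A match is a description of letters and not a bound site, and in Lig1, Mcm8, Msh6 and Pole2 it lay after the start. The stretches before the start of 6 genes are printed to show where the searched letters lie in genes of licensing, fork synthesis, crosslink repair and end joining, with the matched letters in capitals, 5′ to 3′ on the strand of the gene.
Mcm6, chr1:128359715-128359845, minus strand, with 3 matches of which 2 overlap: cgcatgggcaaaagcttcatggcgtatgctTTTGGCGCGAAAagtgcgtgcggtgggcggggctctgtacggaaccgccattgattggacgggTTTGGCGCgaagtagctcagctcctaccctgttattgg
Mcm7, chr5:138172011-138172078, minus strand: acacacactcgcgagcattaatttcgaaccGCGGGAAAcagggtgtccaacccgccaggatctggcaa
Orc1, chr4:108579397-108579453, plus strand: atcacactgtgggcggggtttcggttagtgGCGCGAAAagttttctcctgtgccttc
Pole4, chr6:82652871-82652938, minus strand: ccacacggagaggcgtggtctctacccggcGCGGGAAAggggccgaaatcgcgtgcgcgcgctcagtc
Fancg, chr4:43010316-43010383, minus strand: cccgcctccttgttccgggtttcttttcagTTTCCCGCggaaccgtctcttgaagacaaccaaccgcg
Xrcc6, chr15:82016293-82016360, plus strand: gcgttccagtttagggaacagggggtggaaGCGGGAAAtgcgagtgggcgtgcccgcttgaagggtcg
Of the 10 genes with a match, Mcm6 and Xrcc6 are among the 8 of 35 members with the smallest p in the F test. Mcm4, Rfc2 and Rad54b, also among those 8, had no window to search. A link between the letters and that ranking was not tested.

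At the replication fork, Rfc2 encodes a small subunit of the clamp loader. Its lowest, median and highest Z in AL mice were 1.25, 1.395 and 1.47 in juveniles, 0.94, 1.385 and 1.45 at 6 months, 1.28, 1.4 and 1.49 at 16 months, and 1.15, 1.45 and 1.57 at 24 months. In CR mice they were 1.33, 1.395 and 1.66, then 1.27, 1.41 and 1.48, then 1.34, 1.5 and 1.64. CR mice of 24 months had the highest median, although their values overlapped those of AL mice of that age, and the difference between diets was 0.10 (SE 0.0529, adjusted p = 0.636), or 0.107 when run-adjusted (adjusted p = 0.152). At 6 months the CR difference was 0.112, and without arrays 31 to 33 it was -0.00175.

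Rpa2, the middle subunit of the protein that coats single-stranded DNA, had the largest positive difference from 6 to 24 months in AL mice (0.496, SE 0.220, adjusted p = 0.342). Its values ran from -0.48 through 0.26 to 1.27 at 6 months and from 0.23 through 1.13 to 1.28 at 24 months. By array run the values did not overlap, since Rpa2 lay between 1.09 and 1.33 in the 21 arrays of the second run and between -0.48 and 0.73 in the 41 of the first. The run difference was 0.912 (SE 0.0422). Run-adjusted, the difference from 6 to 24 months was 0.112 (SE 0.0697, adjusted p = 0.997). Rpa2 was nevertheless the 1 member that an adapted form of the study's selection took for this interval, beside 1.75% of all rows. It asks for a mean Z above 0, a z-ratio of at least 1.5 in size and an unadjusted p under 0.05. Here it was run without the study's closing ANOVA and with an equal-variance test standing in for the study's p. The study itself followed age from 6 to 16 and from 16 to 24 months. Rpa3, the small subunit, had values from -1.37 through -1.155 to -0.82 at 6 months, from -1.26 through -1.14 to -0.93 at 16 months and from -1.22 through -0.94 to -0.62 at 24 months. Its difference from 6 to 24 months was 0.158 (SE 0.0632, adjusted p = 0.342), and 0.134 when run-adjusted. At 24 months the difference of CR from AL mice was -0.143 (adjusted p = 0.636). Pole4, a small subunit of the leading strand polymerase, had medians of 0.79, 0.94 and 1.005 at 6, 16 and 24 months in AL mice, with a difference of 0.10 from 6 to 24 months that was 0.0158 when run-adjusted. Pole2, another of its subunits, ran from -0.16 through 0 to 0.79 at 6 months and from -0.03 through 0.175 to 0.41 at 24 months, with a difference of 0.086 (adjusted p = 0.615). Lig1, the ligase that joins lagging strand fragments, ran from -0.88 through -0.77 to -0.55 in AL and from -0.69 through -0.63 to -0.47 in CR mice of 24 months. The CR mice of that age had the higher median with overlap, and the difference was 0.126 (SE 0.0550, adjusted p = 0.636) and 0.125 when run-adjusted (adjusted p = 0.155). Rfc1 and Rfc5, further clamp loader subunits, had differences of 0.028 and 0.0115 from 6 to 24 months in AL mice.

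In mismatch repair, Msh6 is part of the sensor of mispaired bases and Mlh3 of the complex that acts after it. Msh6 ran from -0.74 through -0.12 to 0.22 at 6 months, from -0.10 through 0.015 to 0.24 at 16 months and from -0.18 through 0.025 to 0.26 at 24 months in AL mice. Its difference from 6 to 24 months was 0.175 (SE 0.0642, adjusted p = 0.334). Run-adjusted, it was 0.0179, and it was 0.03 within the first run and -0.105 within the second, which held 1 mouse of 6 months. Msh6 lay 0.191 higher in the second run. Mlh3 had a difference of 0.085 from 6 to 16 months and of 0.0866 when run-adjusted, neither past the threshold.

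In nucleotide excision repair, Ercc3 encodes a helicase of TFIIH that opens DNA around a lesion, and Rad23b a partner of the damage sensor XPC. Ercc3 ran from -1.93 through -1.6 to -1.44 in juveniles, from -1.71 through -1.455 to -0.84 at 6 months, from -1.70 through -1.49 to -1.38 at 16 months and from -1.66 through -1.415 to -1.34 at 24 months in AL mice. Among AL groups the juveniles thus had the lowest median, and their values overlapped those of each other age. The difference from the juveniles to 6 months was 0.205 (SE 0.0793, adjusted p = 0.984). When run-adjusted it was 0.269 (SE 0.0685, adjusted p = 0.0791), and it was 0.256 within the first run and 0.258 within the second, which held 1 mouse of 6 months. Leaving out 1 mouse gave differences from 0.138 to 0.2465. In CR mice Ercc3 had medians of -1.525, -1.455 and -1.63 at 6, 16 and 24 months. Ercc5, the nuclease that cuts beside the lesion, had medians of -0.69, -0.745, -0.675 and -0.695 in juveniles and at 6, 16 and 24 months in AL mice, with overlap throughout.

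Rad23b ran from -0.13 through -0.085 to 0.04 in juveniles, from -0.59 through -0.125 to 0.02 at 6 months, from -0.16 through -0.025 to 0.06 at 16 months and from -0.39 through -0.225 to 0.07 at 24 months in AL mice. Under CR it ran from -0.74 through -0.12 to -0.01, from -0.17 through -0.085 to 0.07 and from -0.22 through -0.12 to 0. The AL mice of 24 months had the lowest median, and their values spanned those of 16 months. The difference from 16 to 24 months was -0.162 (SE 0.0657, unadjusted p = 0.0168 and adjusted p = 0.956 in limma). It was -0.150 when run-adjusted (SE 0.0399, adjusted p = 0.422), -0.136 within the first run and -0.143 within the second. Array weights, which give less weight to deviating arrays, called Rad23b in this interval (-0.166, adjusted p = 0.0460), the 1 member called, beside 0.501% of all rows.

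Parp1 and Parp2 encode the enzymes that mark DNA breaks with poly(ADP-ribose). Parp2 ran from 0.13 through 0.305 to 0.42 in juveniles, from 0.01 through 0.235 to 0.41 at 6 months, from -0.17 through 0.13 to 0.35 at 16 months and from 0.04 through 0.155 to 0.21 at 24 months in AL mice. CR mice had values from 0.08 through 0.25 to 0.53, from -0.06 through 0.195 to 0.48 and from -0.18 through 0.28 to 0.39. Medians of AL mice of 16 and 24 months were the lowest, the groups overlapped throughout, and the differences from CR mice of those ages did not pass (0.074 at 16 months, adjusted p = 1 in limma). Parp1 had a difference of 0.051 from 6 to 24 months in AL mice and of -0.00149 when run-adjusted.

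In recombination and crosslink repair, Rad54b encodes a DNA translocase of recombination. It ran from -0.16 through 0.06 to 0.23 in juveniles, from -0.02 through 0.055 to 0.36 at 6 months, from -0.25 through 0.01 to 0.18 at 16 months and from -0.22 through 0.015 to 0.11 at 24 months in AL mice. Under CR the values ran from -0.10 through 0.115 to 0.18, from -0.15 through -0.035 to 0.17 and from -0.13 through 0.02 to 0.12. Medians at 16 and 24 months were below those at 6 months on both diets, with overlap. The difference from 6 to 24 months was -0.099 in AL mice (SE 0.0491, adjusted p = 0.382) and -0.0391 when run-adjusted. Fanca, of the Fanconi core complex that acts on crosslinks, ran from 0.68 through 0.825 to 1.27 in CR mice of 6 months and from 0.41 through 0.70 to 0.75 in CR mice of 24 months. Its difference was -0.232 (SE 0.0881, adjusted p = 0.505), -0.186 when run-adjusted and -0.225 within the first run. The adapted form of the study's selection took Fanca and Mcm9 in this comparison, where it took 3.39% of all rows. Rad50, of the MRN complex that binds broken ends, had a run difference of 0.500. Its difference from 6 to 24 months in AL mice was 0.135 (SE 0.143), and -0.119 when run-adjusted. The other genes of this role, Fancg and Fancl of the Fanconi core complex, Xrcc3, a recombination gene, and Rad54l2, a relative of the RAD54 translocases, had differences of -0.043, -0.022, -0.057 and 0.011 over that interval. The cohesin gene Rad21 had -0.068, and -0.0254 when run-adjusted.

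In end joining, Xrcc6 encodes Ku70, which holds broken ends together. In AL mice it ran from 0.71 through 0.835 to 0.93 in juveniles, from 0.33 through 0.78 to 0.95 at 6 months, from 0.65 through 0.825 to 0.95 at 16 months and from 0.56 through 0.765 to 0.87 at 24 months. Under CR Xrcc6 ran from 0.65 through 0.865 to 1.11, from 0.70 through 0.835 to 0.90 and from 0.77 through 0.90 to 1.06. At 24 months CR mice lay higher by 0.158 (SE 0.0583, 95% interval 0.0414 to 0.275, adjusted p = 0.636), and by 0.147 when run-adjusted (SE 0.0449, adjusted p = 0.0948). The CR males of this age group were younger than its AL males, and the part of that gap was not tested. Within the first run the 4 AL mice lay between 0.67 and 0.86 and the 4 CR mice between 0.90 and 1.06, without overlap, and within the second run 6 AL and 3 CR mice overlapped (difference 0.0817). At 16 months the difference between diets was -0.014, and at 6 months it was 0.125 with all arrays and 0.0228 without arrays 31 to 33. The adapted form of the study's selection took Xrcc6 at 24 months as the 1 member, beside 2% of all rows.

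Rad18, the ubiquitin ligase that starts translesion synthesis at stalled forks, was the member nearest to the threshold. It ran from -1.695 through -1.115 to -0.97 in juveniles, from -1.125 through -0.9675 to -0.715 at 6 months, from -1.165 through -0.90 to -0.685 at 16 months and from -1.175 through -0.845 to -0.725 at 24 months in AL mice. CR mice ran from -1.795 through -0.99 to -0.64 at 6 months, from -1.19 through -0.965 to -0.84 at 16 months and from -1.065 through -0.905 to -0.835 at 24 months. The juveniles had the lowest median and overlapped with each adult group. The difference from the juveniles to 6 months was 0.2085 (SE 0.0717, adjusted p = 0.984), 0.203 when run-adjusted, and 0.209 and 0.185 within the first and second run. With array weights the F test called Rad18 (adjusted p = 0.0445), the 1 member called, beside 0.822% of all rows. It also did so without 6 months CR male replicate 1 (adjusted p = 0.0428; 0.36% of all rows), and with array weights and a run term but no arrays 31 to 33 (adjusted p = 0.0393; 0.925% of all rows). Among adults the difference of males from females was -0.114 (SE 0.0440, adjusted p = 0.991), and -0.0667 when run-adjusted.

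The level of Rad18 is the mean of 2 features, and these did not vary alike. The feature numbered 12663 had medians of -1.375, -1.02, -0.895 and -0.835 in juveniles and at 6, 16 and 24 months in AL mice, and feature 9108 had -0.92, -0.915, -0.915 and -0.865. The difference from the juveniles to 6 months was 0.373 at feature 12663 and 0.044 at feature 9108, and the F test gave an adjusted p of 0.0592 and of 0.937. Across mice the residuals of both features had r = 0.0642 (permutation p = 0.620, adjusted p = 0.740) and rho = 0.0030 (permutation p = 0.982, adjusted p = 0.982), r being -0.173 without the 2 farthest mice and 0.191 and -0.386 within the runs.

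**Figure D3:**
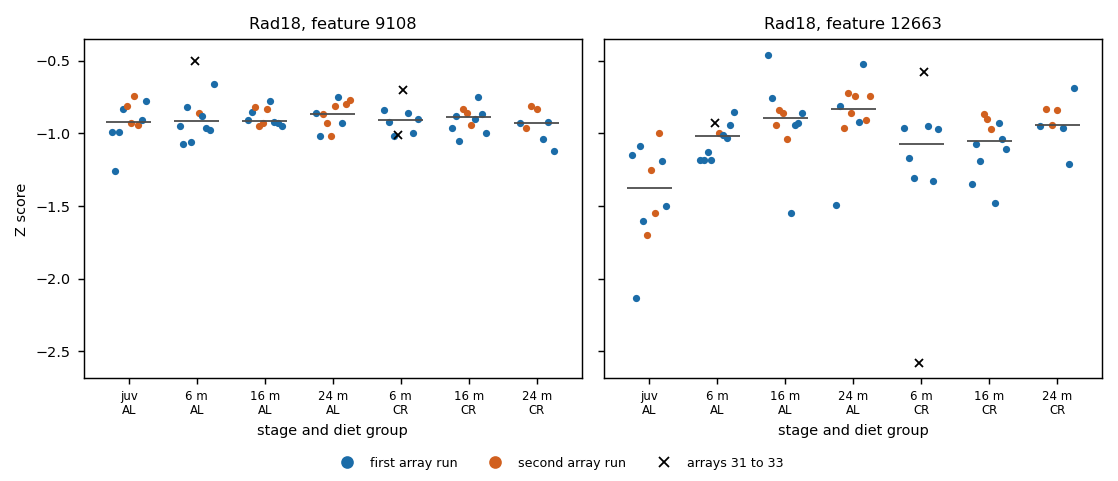
Z score (y axis) of feature 9108 (left) and feature 12663 (right) of Rad18 by stage and diet group (x axis), each point being 1 mouse, coloured by array run, with crosses for arrays 31 to 33 and lines for the median. The median of feature 12663 goes from -1.375 in juveniles to -0.835 at 24 months on the AL diet, while that of feature 9108 lies between -0.92 and -0.865.

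The other genes with 2 features showed the same limit of a gene name on this filter. For Rad50, feature 11633 had a mean Z of -1.41 and lay 1.16 higher in the second run, whereas feature 14132 had a mean of 1.92 and a run difference of -0.185. Their residuals had r = -0.0558 (permutation p = 0.666) and rho = -0.0181 (permutation p = 0.889). For Rfc1, the large clamp loader subunit, the residuals of the 2 features were opposed, with r = -0.449 (permutation p = 0.00023, adjusted p = 0.0023) and rho = -0.434 (permutation p = 0.00062, adjusted p = 0.0062). Without the 2 farthest mice r was -0.376, and within the runs it was -0.475 and -0.362. For Rfc5 r was -0.0302 (permutation p = 0.814) and rho -0.0065 (permutation p = 0.960).

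Growth of the juvenile cord to adulthood gave 0 of 35 members, beside 0.141% of all rows. Positive differences were found for 13 genes and negative ones for 22, with a median of -0.008 (all rows -0.003). At an unadjusted p under 0.05 there were 4 members, all positive (Rad18, Ercc3, Orc1 and Orc6), which is 11.4% of the members beside 2.71% of all rows. Of the remaining small p values, Msh6 had a difference of -0.127 and Rad21 of 0.094, and run-adjusted these were -0.00813 and 0.0510. Among juveniles, the 5 oldest (33 to 44 days) were set against the 5 youngest (17 to 21 days), a comparison added after the other results had been seen. It gave 0 of 35 members beside 0% of all rows, and 2 members had an unadjusted p under 0.05 (2.25% of all rows). These were Rad18, with a mean of -1.28 in younger and -1.05 in older juveniles, and Mcm2, with -0.158 and -0.354, the younger group holding 3 and the older 1 array of the second run. Run-adjusted, their differences were 0.252 and -0.103.

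**Figure D4:**
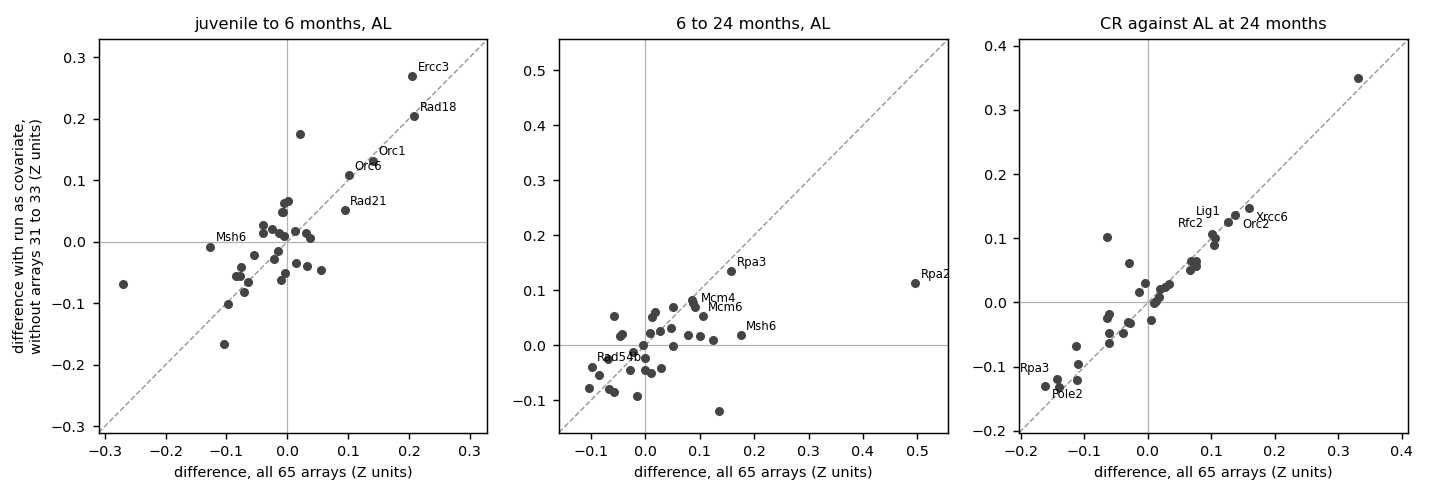
Difference of each of the 35 genes with all 65 arrays (x axis) against the run-adjusted difference (y axis), both in Z units, in 3 comparisons, each point being 1 gene and the dashed line marking equal values, with names for the 6 smallest p values. Rpa2 moves from 0.496 to 0.112 from 6 to 24 months, whereas Xrcc6 stays near the line at 24 months (0.158 and 0.147).

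Adult age in AL mice gave no member in any interval. From 6 to 16 months 0 of 35 passed (0.0257% of all rows), with 23 positive and 12 negative differences and a median of 0.056 (all rows 0.01), which was 0.00743 when run-adjusted. The smallest p values belonged to Msh6 (0.175), Mcm6 (0.117), Rad54b (-0.101), Rad23b (0.133), Ercc5 (0.119) and Mlh3 (0.085), the first 4 with an unadjusted p under 0.05, 11.4% beside 13.3% of all rows. Run-adjusted, these 6 had 0.0561, 0.0611, -0.0520, 0.104, 0.0976 and 0.0866. Without array 33 alone, Msh6 had 0.1135, Mcm6 0.056, Rad54b -0.0683 and Rad23b 0.0868. From 16 to 24 months 0 of 35 passed (0% of all rows). Unadjusted, 2 members were under 0.05, Rad23b (-0.162) and Rpa3 (0.153), 5.71% beside 2.00% of all rows. They were followed by Pole2 (0.117), Xrcc6 (-0.076), Lig1 (-0.071) and Mcm9 (0.113). From 6 to 24 months 0 of 35 passed (0.0643% of all rows), and 6 had an unadjusted p under 0.05, namely Msh6, Rpa3, Mcm4, Mcm6, Rpa2 and Rad54b, which is 17.1% beside 13.0% of all rows. When run-adjusted, 2 did, Rpa3 and Mcm4, which is 5.71% beside 3.74%. With array weights 7 members passed (Mcm2, Msh6, Parp2, Pole2, Pole4, Rpa2 and Rpa3), 20% of 35 beside 22.2% of all rows. The median 95% interval of a member, before adjustment, reached 0.127 to either side in these comparisons.

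Markers of microglia were followed over the same interval. Of 14 listed genes 4 had a feature with a single symbol (C1qa, C1qb, C1qc and Ctsd), and all 4 were higher at 24 than at 6 months in AL mice, with 2 past the threshold and a median difference of 0.2255. Run-adjusted, 1 passed and the median was 0.155. Their mean level per mouse lay between -0.514 and 0.0888 (median 0.02) at 6 months and between 0.125 and 0.316 (median 0.2075) at 24 months, and its part in the values of the replication and repair genes was not tested. Of the other lists, 0 marker genes passed in this comparison, namely 1 of oligodendrocytes, 3 of astrocytes, 3 of neurons, 1 of Schwann cells, 3 of blood, 1 of muscle and 4 of meninges and endothelium.

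CR against AL feeding gave no member at any age. At 6 months 0 of 35 passed (0.0257% of all rows), and the 4 with an unadjusted p under 0.05 were Xrcc6 (0.125), Rfc2 (0.112), Rad18 (-0.1635) and Msh6 (0.145), which is 11.4% beside 7.70% of all rows. Without arrays 31 to 33, of which 2 are CR and 1 is an AL mouse of this age, these differences were 0.0228, -0.00175, -0.055 and 0.0095, and 0 members had such a p. Mlh3 (0.0987) and Rad21 (-0.102) followed. At 16 months 0 of 35 passed (0% of all rows), and 0 members had an unadjusted p under 0.05, Rad18 having the smallest (-0.095), before Parp2 (0.074), Orc2 (0.072), Orc6 (-0.05), Rfc1 (-0.052) and Mcm9 (0.091). At 24 months, where the CR males were younger than the AL males, 0 of 35 passed (0% of all rows). Here 4 members had an unadjusted p under 0.05, Xrcc6 (0.158), Lig1 (0.126), Orc2 (0.1375) and Rpa3 (-0.143), which is 11.4% beside 7.35% of all rows. When run-adjusted there were 8, 4 higher and 4 lower, which is 22.9% beside 18.4%. Pole2 had a CR difference of -0.163 at this age and of -0.130 when run-adjusted (adjusted p = 0.138). Over the 3 ages together 0 of 35 passed (0.0129% of all rows), the smallest p values being those of Xrcc6 (0.0897), Rad18 (-0.1065), Orc2 (0.0836), Rfc2 (0.0683), Mlh3 (0.0536) and Parp2 (0.0668). The first 4 had an unadjusted p under 0.05, 11.4% beside 10.5% of all rows. Run-adjusted, these 4 had 0.0479, -0.0609, 0.0687 and 0.0349, and 0 members had such a p, beside 5.08% of all rows.

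Age was also followed within CR mice, and the diets were compared in their change with age. From 6 to 24 months under CR 0 of 35 passed (0.0257% of all rows), with 25 positive and 10 negative differences and a median of 0.0379 (all rows 0.0150), and Fanca (-0.232) and Rad18 (0.1895) had an unadjusted p under 0.05, 5.71% beside 8.75% of all rows. Run-adjusted there were 6 such members, 3 higher and 3 lower, 17.1% beside 17.1%, and Rad18 had 0.0775. Rfc1 (0.125), Fancg (-0.124), Rad23b (0.146) and Ercc5 (0.136) followed, and that of Rad23b was -0.0208 without arrays 31 to 33. The change from 6 to 24 months differed between diets for 0 of 35 members (0% of all rows). Unadjusted, Orc1 (0.217), Lig1 (0.169) and Rpa3 (-0.2125) were under 0.05, 8.57% beside 1.54% of all rows. When run-adjusted there were 4 such members, 11.4% beside 9.23%. Pole2 (-0.197) had a run-adjusted value of -0.218 (adjusted p = 0.490). Rad23b (0.175) and Fanca (-0.186) were the next by p. Males and females differed for 0 of 35 members among adults (0% of all rows), with Rad18 as the 1 member under an unadjusted 0.05, 2.86% beside 3.51% of all rows, before Orc6 (-0.0583), Fancg (0.0633), Parp1 (-0.0771), Mcm8 (0.278) and Rad54l2 (-0.0739).

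The array runs were drawn from the first principal component of these same values, so a difference between them is in part fixed by how they were drawn and is given as a description. In that comparison 13 of 35 had an adjusted p under 0.05, 9 higher and 4 lower in the second, beside 47% of all rows, and the median size of the run difference was 0.0583 in members and 0.0670 in all rows. For 11 members the run difference was larger than the largest run-adjusted difference between stages or diets. After Rpa2 and Rad50 came Pole4 (0.251), Mcm2 (0.239) and Mcm9 (0.219), and Rfc5 had the lowest value (-0.168).

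**Figure D5:**
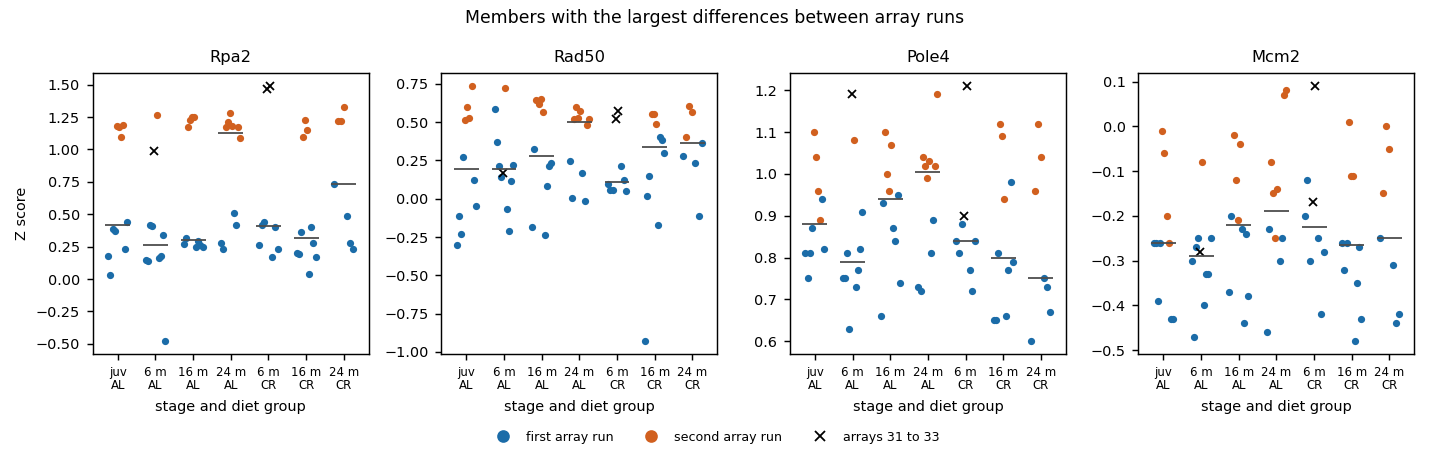
Z score (y axis) of Rpa2, Rad50, Pole4 and Mcm2 by stage and diet group (x axis), each point being 1 mouse, coloured by array run, with crosses for arrays 31 to 33 and lines for the median. For Rpa2 the second run (21 arrays) starts at 1.09 and the first (41 arrays) ends at 0.73, whatever the group.

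Genes of the same pathways outside the symbol rule were also counted. Of 112 further repair and replication genes on a fixed list, 35 were measured. In each of the 11 comparisons 0 of them passed, beside 0% to 0.141% of all rows. From 6 to 24 months in AL mice 18 of them had positive and 17 negative differences (median 0.0035). Over all rows 48.75% were positive, with a median of -0.003. The alkylation repair gene Alkbh2 (0.157), the chromatin assembly gene Chaf1b (0.154) and Smc6 (-0.146) had small p values. Their run-adjusted differences were 0.0801, -0.00244 and -0.0887. At 24 months Pms2, a partner in mismatch repair, had a CR difference of 0.146 (adjusted p = 0.636) and a run-adjusted one of 0.139 (adjusted p = 0.0994). Of 32 proliferation genes 10 were measured, and 0 passed in each comparison, beside the same 0% to 0.141% of all rows. From the juveniles to 6 months these 10 had differences between -0.134 and 0.092 (median 0.0255, all rows -0.003). The mitotic genes Ccna2, Ccnb2, Bub1 and Bub1b were among them.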

How the data were processed

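The authors hybridized radioactively labelled cDNA of 65 spinal cords to nylon filters of the NIA mouse 17K set (filter B) and read the spots with ArrayPro. Each deposited value is a score: within every array the authors turned intensities into Z scores, held to 2 decimals and ranging here from -8.58 to 3.32. For the log base and the background correction, the sources used here name none, so differences are in Z units and not folds. Because a Z score depends on all spots of a filter, a change shared by most of them leaves no trace. The files hold no depth, and precision is limited by how many arrays a group has.

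Features were named by the platform annotation, in which 4875 had 1 symbol, 224 several and 3349 none, and all member symbols matched RefSeq (0 differed). Features of a gene were averaged, and those without a single symbol stayed as rows of their own (7782 rows). The test was limma 3.58.1 (lmFit and eBayes) in R 4.3.3, with 14 means of stage, diet and sex in 1 fit (51 residual degrees of freedom), sexes weighted equally, and Benjamini-Hochberg adjustment over all rows at 0.05. Correlations used 100000 permutations. The fit was tested on simulated data with independent normal residuals. These held no array runs and no deviating arrays, so that test does not cover either.

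The members, the gene lists and the tests were chosen with earlier results of these data known. In each comparison the 6 members with the smallest p are named, and the 8 with the smallest F test p are given by group. The alternatives were single features, named genes alone, a mean Z above 0, quantile normalization, the run, the round of arrays as a block, arrays 31 to 33, array weights, a variance trend, feature positions, the array whose labels disagree, single mice and the study's selection, which was run without its closing ANOVA. The sources used here do not name the test behind that selection's p, and a two-sided equal-variance test of both group means stood in for it. Array weights combined with the run, and the comparison among juveniles, were added after seeing the data.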

Additional observations from a re-analysis of the deposited data

Results flagged for a closer look

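In the 8 genes with the smallest F test p, 56 sets of mice (8 genes in 7 stage and diet groups) were examined for a mouse far from the rest of its group by Dixon's test, and 11 had one. The test flags about 1 in 20 independent sets of normal values. These sets mixed sexes and array runs and shared the same arrays, so the 11 cannot be read against that rate. Of the 11 flags, 6 belonged to arrays 31 to 33. Array 33, AL male replicate 3 of 6 months, lay at -0.59 for Rad23b, -0.24 for Mcm6, 0.94 for Rfc2 and 2.04 for Mcm4, below the other mice of its group, and at 0.36 for Rad54b, above them. CR male replicate 2 of 6 months lay at -1.795 for Rad18, below its group. The others were Rad18 at -1.695 in juvenile female replicate 1, at -1.165 in AL male replicate 4 of 16 months and at -1.175 in AL male replicate 1 of 24 months, each the lowest of its group, Rad23b at 0.04 in juvenile female replicate 5 and Mcm4 at 2.68 in CR male replicate 1 of 24 months, each the highest.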

How the results depend on the processing

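The count of members was 0 in all comparisons and stayed 0 under every alternative except the following. Array weights gave 1 from 16 to 24 months, 7 from 6 to 24 months and 1 in the F test. The adapted form of the study's selection gave 1 from 6 to 24 months in AL mice, 1 for CR at 24 months and 2 from 6 to 24 months in CR mice. It could not be applied to the F test or the diet difference of the change with age. Array weights and a run term together, leaving arrays 31 to 33 out, gave 1 in the F test, Rad18 (adjusted p = 0.0393). Leaving out single mice gave 0 to 1 in the F test, the 1 being without 6 months CR male replicate 1, and 0 elsewhere. Of the named differences, 2 changed sign without arrays 31 to 33, Rfc2 for CR at 6 months (-0.00175) and Rad23b from 6 to 24 months under CR (-0.0208). With array weights, the run and no arrays 31 to 33, Msh6 from 6 to 24 months (-0.00794) and Rfc2 for CR at 6 months (-0.00948) changed sign. Of 1770 differences with 1 mouse left out, 1770 kept their sign and side of the threshold. The cause was not tested. No paired analysis was possible because the labels give no replicate numbers. The round of array numbers, fitted as a block in its place, left every count at 0.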
